A study of Mus musculus with 21 samples.

Results

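The insulin-like growth factor (IGF) system was followed here through 10 mouse genes, the ligand gene Igf1, the receptor genes Igf1r and Igf2r and the binding protein genes Igfbp1 to Igfbp7. A peak of estrogen receptor alpha (ERα) was counted for a gene when its summit lay inside the gene span (mm10) or within 25 kb of it. By this rule 59 of 72690 listed peaks belonged to the system, 25 of 20715 in vWAT with estradiol, 15 of 17971 in scWAT, 1 of 5193 in BAT, 11 of 21411 in Liver and 7 of 7400 in vWAT with vehicle. All 10 genes had a peak in at least 1 of the 5 lists, as did 80.0% of the 21627 protein-coding genes of the gene table. ERα was mapped by chromatin immunoprecipitation and sequencing in CD-1 mice aged 10 weeks that received estradiol or vehicle before sacrifice. The groups were vWAT with estradiol (4 libraries), scWAT, BAT and Liver with estradiol (3, 1 and 2 libraries) and vWAT with vehicle (2 libraries). vWAT, scWAT and BAT are the usual abbreviations of visceral and subcutaneous white fat and of brown fat. The antibody was sc543. No source used here gives the sex of the mice, the dose or timing of estradiol, or whether the libraries of a group came from separate mice. Each group had 1 deposited list, so the values carry no spread over mice or libraries and no replicate test was possible. The sequencing depth of the lists is unknown, and their lengths differ.

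IGF-1, made largely by liver under growth hormone and also by fat and other tissues, acts through the IGF-1 receptor, a tyrosine kinase. The product of Igf2r takes up ligand and mannose-6-phosphate proteins and carries them to lysosomes. The binding proteins hold IGFs in blood and tissue and set how much reaches the receptor, and IGFBP-7, a related matrix protein, binds them weakly. In uterus and breast cells, estrogen is known to act on several of these genes, of which IGFBP4 is a classical ERα target in human breast cancer cells.

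The strongest peaks counted for Igfbp4 and for Igfbp6 lay at the start sites of neighbouring genes, and the sequences there are shown because these sites were bound in vWAT with both treatments and in Liver. The strongest peak counted for Igfbp4 covered the promoter of Top2a, which encodes a DNA topoisomerase of dividing cells, and the strongest counted for Igfbp6 covered that of Spryd3. Both sequences are those of RefSeq on GRCm38.p6, the assembly of mm10, and run 5′ to 3′ on the minus strand from 250 bases before to 50 bases after the start site. They lie at chr11:99024140-99024439 and chr15:102136166-102136465. Capitals mark the stretch between the outermost summits of the lists, which spans 64 bases in Top2a (4 lists) and 45 in Spryd3 (3 lists).
Top2a promoter: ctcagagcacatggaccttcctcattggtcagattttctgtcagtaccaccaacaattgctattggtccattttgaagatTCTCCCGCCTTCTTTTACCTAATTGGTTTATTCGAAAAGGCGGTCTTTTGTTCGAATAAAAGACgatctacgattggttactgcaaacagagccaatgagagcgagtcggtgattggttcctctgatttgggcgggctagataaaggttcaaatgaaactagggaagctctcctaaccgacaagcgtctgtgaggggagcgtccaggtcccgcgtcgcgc
Spryd3 promoter: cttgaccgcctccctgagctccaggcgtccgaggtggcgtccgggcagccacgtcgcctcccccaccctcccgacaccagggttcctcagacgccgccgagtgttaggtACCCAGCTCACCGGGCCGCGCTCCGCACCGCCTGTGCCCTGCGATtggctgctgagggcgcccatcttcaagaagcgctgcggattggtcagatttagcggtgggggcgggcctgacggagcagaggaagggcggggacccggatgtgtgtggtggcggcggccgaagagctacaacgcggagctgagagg
The summits lay 107 bp (vWAT estradiol), 125 bp (scWAT), 170 bp (Liver) and 119 bp (vWAT vehicle) upstream of the Top2a start site. At Spryd3 they lay 97 bp (vWAT estradiol), 141 bp (Liver) and 119 bp (vWAT vehicle) upstream. The palindromic estrogen response element, GGTCA and TGACC with 3 free bases between them, was searched on both strands. It was found in neither promoter with up to 1 mismatch in its 10 fixed bases, and 0.883% of 32619 promoter windows held such a match. The peaks at these sites run past both ends of the windows shown, and the sequence beyond was not available to search. The Top2a window held 6 copies of CCAAT or its complement ATTGG, the core of the CCAAT box, and the Spryd3 window 2. At least 6 copies were found in 0.0797% of all windows and at least 2 in 11.7%. This motif was chosen after the sequences were seen.

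None of the 11 promoter windows of the 10 IGF system genes was touched by a peak of any list, and none held the response element with up to 1 mismatch. The summit nearest to a start site of these genes was the BAT peak of Igfbp7, 0.826 kb downstream of it. Next came the vWAT estradiol and scWAT peaks of the same gene, at 1.45 and 1.66 kb. Of the 25 vWAT estradiol peaks, 17 had their summit inside the span of a system gene. Igf1, Igf1r, Igf2r and Igfbp7, which have long spans, held 4, 5, 3 and 4 of them, and Igfbp4 held 1. The share of all peaks inside genes was not counted. The gene table gives spans without exons, so exons and introns were not told apart.

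In vWAT with estradiol, 6 of the 10 genes had a peak (Igf1, Igf1r, Igf2r, Igfbp4, Igfbp6 and Igfbp7), against 61.5% of all protein-coding genes. The same 6 had a peak in scWAT (background 61.0%). In BAT only Igfbp7 did (background 29.7%), and its peak was weak, with a −log10 q-value of 0.566. In Liver 8 of 10 did, all but Igf1r and Igfbp7 (background 67.5%), and in vWAT with vehicle 6 of 10 did (background 44.8%). The shares in vWAT estradiol and scWAT were near those of all genes, so the count alone did not set the system apart there. The Liver and vehicle counts include neighbouring genes that share peaks. All counts but that of BAT include peaks at the ends of other genes. With a peak counted for its nearest gene alone, 5 genes had one in vWAT estradiol, 4 in scWAT, 5 in Liver and 3 in vWAT vehicle. No background was counted by that rule. Igf1r, Igf2r, Igf1 and Igfbp7 have long spans, longer than those of 97.2%, 86.8%, 85.2% and 80.4% of protein-coding genes. The window of a long gene covers more of the genome.

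**Figure D1:**
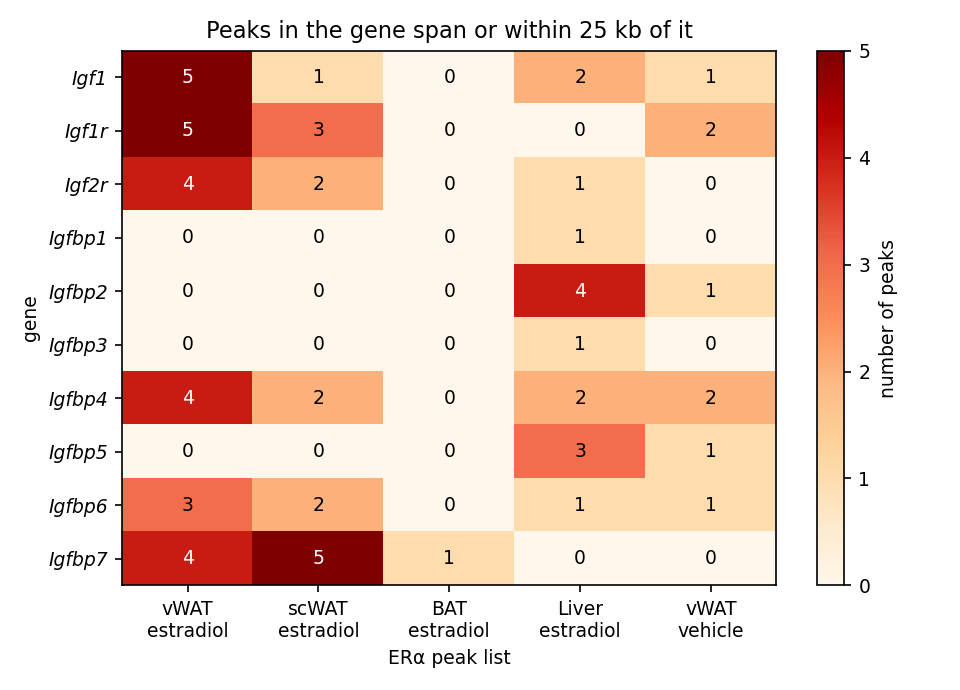
Number of ERα peaks whose summit lies in the span of each IGF system gene or within 25 kb of it (rows), by peak list (columns). Igfbp1, Igfbp2, Igfbp3 and Igfbp5 have 0 peaks in the 3 fat lists with estradiol, and neighbouring genes share peaks.

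Enrichment, the authors' ratio of a peak over a background that is not stated, was read within a list alone. In vWAT estradiol the 25 peaks ranged from 3.41 to 15.5 with a median of 4.75, against 4.84 over the list, and 10 of 25 lay above the list median. In scWAT they ranged from 2.66 to 9.55 with a median of 3.21, against 3.43 over the list, and 6 of 15 lay above it. In Liver they ranged from 3.30 to 10.6 with a median of 4.22, against 3.91, and 7 of 11 lay above it. In vWAT vehicle the 7 peaks ranged from 3.45 to 17.1, and 5 lay above the list median of 4.77. Among the strongest 10% of their list stood 2 of the 25 peaks in vWAT estradiol, 1 of 15 in scWAT, 0 of 1 in BAT, 1 of 11 in Liver and 1 of 7 in vWAT vehicle. In each of the 4 lists with such a peak, 1 was the site at the Top2a start site. The other vWAT estradiol peak lay inside Igf1r.

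**Figure D2:**
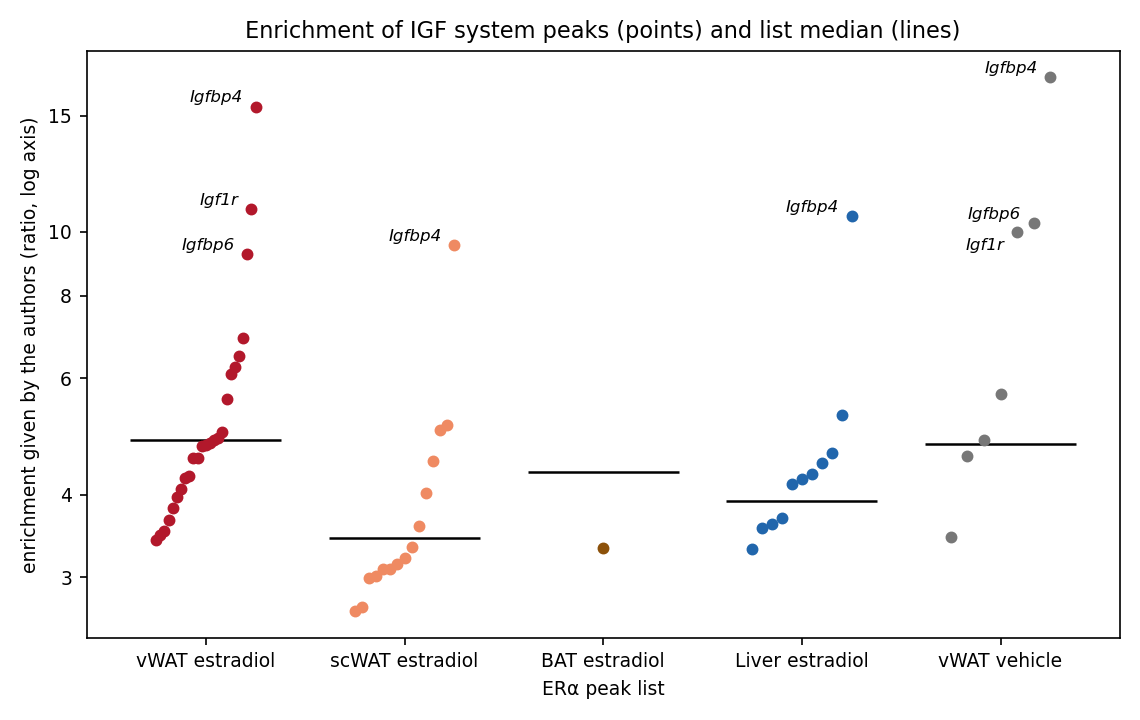
Enrichment of each IGF system peak (points, log axis) by list, with the median over all peaks of that list (black lines) and the strongest peaks labelled by gene. The Igfbp4 peak at the Top2a start site is the highest point in the 4 lists that hold it, at 15.5, 9.55, 10.6 and 17.1.

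Igf1, the ligand gene (chromosome 10, 87858265 to 87937047), had 5 peaks in vWAT with estradiol, 1 in scWAT, 2 in Liver, 1 in vWAT with vehicle and none in BAT. At least 5 vWAT estradiol peaks were found at 4.34% of protein-coding genes. The strongest vWAT estradiol peak lay 12.7 kb upstream of the start site, inside the span of the non-coding gene Igf1os, with an enrichment of 6.48 (rank 5479 of 20715). The other 4 lay inside the gene at 19.1, 31.2, 41.1 and 66.2 kb, with 4.54, 4.23, 3.97 and 3.81. None of the 5 overlapped a peak of another list, and 43.2% of all vWAT estradiol peaks were likewise found in no other list. The scWAT peak (3.59, rank 8190 of 17971) and a Liver peak (3.61, rank 11564 of 21411) overlapped each other about 45 kb into the gene, at 45.4 and 45.6 kb. The other Liver peak lay at 24.6 kb (4.47, rank 6945), and the vehicle peak at 74.8 kb was among the weakest of its list (3.45, rank 6901 of 7400).

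The strongest peaks around Igf1 lay outside the 25 kb limit. At 48.6 kb upstream of the start site, a vWAT estradiol peak had an enrichment of 15.7 (chromosome 10, 87812204 to 87812789, rank 356 of 20715). A scWAT peak at 48.7 kb upstream, which overlapped it, had 14.98 (rank 116 of 17971). Neither had a counterpart in BAT, Liver or vWAT vehicle. A further peak 39.1 kb upstream had 12.4 in vWAT estradiol (rank 1037), and the scWAT and vehicle peaks there had 8.83 (rank 1045) and 3.99 (rank 5666 of 7400). At both sites the nearest protein-coding gene other than Igf1 lay over 228 kb away. Just inside the limit, the farthest counted summit of the system was that of Igfbp6 in vWAT estradiol, 24.2 kb from the span (4.86), and just outside it was a Liver summit 25.97 kb from Igf1 (4.23).

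Igf1r, the gene of the signalling receptor (chromosome 7, 67952257 to 68233668), had 5 peaks in vWAT with estradiol, 3 in scWAT, 2 in vWAT with vehicle and none in BAT or Liver. The strongest lay inside the gene, 177.0 kb from its start site and 106 kb from any other protein-coding gene, at 68129013 to 68129490. Its enrichment was 10.8 in vWAT estradiol (rank 1650 of 20715, the top 7.97%) and 10.0 in vWAT vehicle (rank 957 of 7400, the top 12.9%), and the summits lay 23 bp apart. It was the only peak inside a system gene that was listed with both treatments. The nearest scWAT peak, at 177.5 kb, did not overlap it (3.02, rank 12917 of 17971). The next strongest vWAT estradiol peak, 89.5 kb into the gene (6.24, rank 5907), was matched by scWAT (4.50, rank 4643) with summits 102 bp apart and was absent with vehicle. The remaining 3 vWAT estradiol peaks, at 4.98, 4.08 and 3.47, were found in no other list. The second vehicle peak lay 0.217 kb past the far end of the gene (5.69, rank 2491) and was not found with estradiol. Outside the 25 kb limit, a Liver peak lay 39.0 kb from the span (4.54, rank 6645 of 21411).

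Igf2r, the clearance receptor gene (chromosome 17, 12682406 to 12769706), had 4 peaks in vWAT with estradiol, 2 in scWAT, 1 in Liver and none in BAT or in vWAT with vehicle. The vWAT estradiol peaks had enrichments of 4.75, 4.27, 3.66 and 3.52, and the strongest ranked 10845 of 20715. That peak, 8.87 kb into the gene, was also listed in scWAT at 2.71 (rank 16147 of 17971), with summits 37 bp apart. The other scWAT peak was the stronger (3.09, rank 11794 of 17971). It lay 54.4 kb into the gene and overlapped no peak of another list. Of the 4 vWAT estradiol peaks, 3, at 8.87 and 18.7 kb into the gene and 22.2 kb upstream, also fell in the span of Airn, the long non-coding RNA gene that overlaps Igf2r and is known for silencing the paternal copy in mice.

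**Figure D3:**
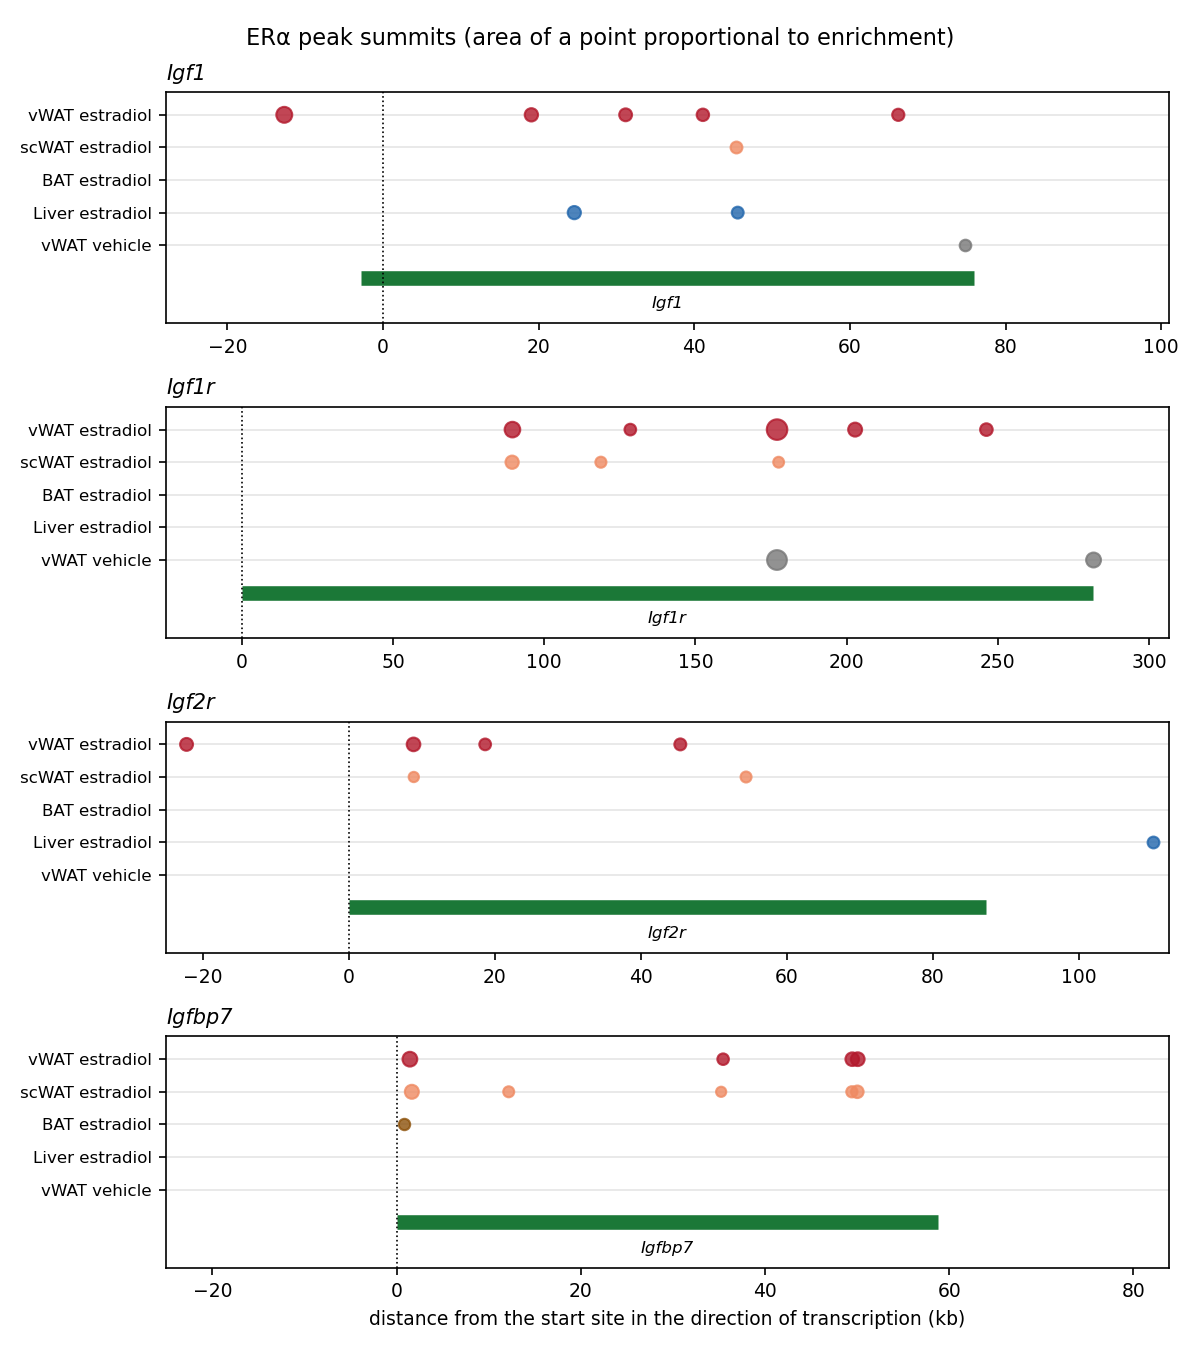
Positions of peak summits in each list (rows) along Igf1, Igf1r, Igf2r and Igfbp7, as distance from the start site in the direction of transcription (kb). Green bars are the gene, neighbouring genes are not drawn, and point area is proportional to enrichment. In Igfbp7 the 4 vWAT estradiol peaks line up with 4 of the 5 scWAT peaks, beside 48.4% of all vWAT estradiol peaks that overlap a scWAT peak.

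Igfbp4, whose product can hold back IGF action in tissue, had the strongest peaks of the system (chromosome 11, 99040005 to 99052655). They were the peaks at the Top2a start site, 16.9 kb upstream of the Igfbp4 start site. Their enrichment was 15.5 in vWAT estradiol (rank 391 of 20715), 9.55 in scWAT (rank 814 of 17971), 10.6 in Liver (rank 724 of 21411) and 17.1 in vWAT vehicle (rank 143 of 7400). They stood in the strongest 1.89% with estradiol and 1.93% with vehicle in vWAT. The 4 summits fell within 63 bp. BAT had no peak near Igfbp4.

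Other peaks near Igfbp4 were weaker. A summit 24.9 kb downstream of the start site, 420 bp inside the end of Tns4, a tensin gene, had 6.09 in vWAT estradiol (rank 6277), 3.33 in scWAT (rank 9854) and 4.84 in vWAT vehicle (rank 3569). The 2 vWAT estradiol peaks closest to Igfbp4 itself lay 3.31 kb into the gene (4.54, rank 12421) and 2.85 kb past its end (4.78, rank 10657). Both were found in no other list. A Liver peak 4.63 kb into the gene (3.30) overlapped neither.

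Likeness to Igfbp4 was read from strongest-peak position within each list, over the 5 lists, among protein-coding genes that share no peak with it. By this measure 7 genes tied as most like Igfbp4, namely Zbtb7b, Lenep, Flad1, Cks1b, Shc1, Pygo2 and Pbxip1. Igfbp4 stood at the 98.1, 95.5, 0, 96.6 and 98.1 percentile of the vWAT estradiol, scWAT, BAT, Liver and vWAT vehicle lists, and each of these genes at 98.5, 96.0, 0, 97.8 and 98.7, where 0 is no peak (mean absolute difference 0.542). The 7 have the same strongest peak in each list and count as 1 instance.

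Igfbp6, whose product favours IGF-2 as a ligand (chromosome 15, 102144186 to 102149512), had 3 peaks in vWAT with estradiol, 2 in scWAT, 1 in Liver and 1 in vWAT with vehicle, and none inside its own span. The strongest was that at the Spryd3 start site, 7.87 kb upstream. Its enrichment was 9.26 in vWAT estradiol (rank 2545 of 20715), 5.27 in Liver (rank 3952 of 21411) and 10.3 in vWAT vehicle (rank 909 of 7400), and scWAT had no peak there. A pair of vWAT estradiol peaks lay inside Spryd3, 23.4 and 24.2 kb upstream of Igfbp6, at 6.90 and 4.86. The stronger of the pair was matched in scWAT (5.11, rank 3606 of 17971) and had no vehicle counterpart. The other scWAT peak lay 1.32 kb past the end of Igfbp6 inside Soat2, a cholesterol esterification gene (2.99).

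Igfbp7 (chromosome 5, 77349240 to 77408045) was the gene with the most scWAT peaks of the system. Within 25 kb it carried peaks in the 3 fat lists with estradiol, but none in Liver or in vWAT with vehicle. The share of all genes with that pattern was not counted. Its BAT part rests on 1 peak with a −log10 q-value of 0.566, and a Liver peak lay 38.9 kb from the span (3.77). There were 4 peaks in vWAT estradiol, 5 in scWAT and 1 in BAT, all inside the gene. At least 5 scWAT peaks were found at 3.78% of protein-coding genes. Closest to the start site, a vWAT estradiol peak had 5.58 (rank 7561 of 20715) and a scWAT peak 5.01 (rank 3722 of 17971). The BAT peak (3.31, rank 4782 of 5193) overlapped the end of that scWAT peak, with summits 834 bp apart, and not the vWAT peak. Near the far end of the gene, a pair of adjacent peaks about 50 kb from the start site recurred in both white fat lists. They had 4.83 and 4.74 in vWAT estradiol and 4.02 and 3.21 in scWAT, and in each case the vWAT and scWAT summits lay 42 bp apart. The last shared peak, 35.5 kb into the gene, was weak in both (3.41 in vWAT estradiol and 2.66 in scWAT). All 4 vWAT estradiol peaks of Igfbp7 were found in scWAT, as were 48.4% of all peaks of that list. The strongest ranked in the top 36.5% of the vWAT estradiol list, and none was in the strongest 5193 peaks by p-value.

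Igfbp1, Igfbp2, Igfbp3 and Igfbp5 had no peak in vWAT, scWAT or BAT with estradiol, while each had at least 1 in Liver. Of all protein-coding genes 8.55% had that pattern. It holds within 25 kb. Within 50 kb, Igfbp3 had a peak in vWAT estradiol (4.59, 48.6 kb away) and in scWAT (3.60, 48.7 kb away), and Igfbp1 had one in scWAT (3.09, 44.6 kb away). The 4 genes are 2 neighbouring pairs that share peaks, so they are 2 instances rather than 4. Igfbp1, an insulin-controlled gene of hepatocytes, lies 3.54 kb from Igfbp3, which encodes the main IGF carrier of blood. Both were counted for 1 Liver peak, 5.06 kb upstream of the Igfbp1 start site (chromosome 11, 7192556 to 7192915), with an enrichment of 4.22, a rank of 8113 of 21411 and a −log10 q-value of 2.35.

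Igfbp2 and Igfbp5, whose spans lie 5.59 kb apart on chromosome 1, had 4 Liver peaks between them. Their enrichments were 4.62, 4.29, 4.15 and 3.68, and their −log10 q-values were 2.83, 2.30, 2.02 and 1.47. The strongest (72854683 to 72854986) lay between the genes, 2.29 kb past the end of Igfbp2, and ranked 6249 of 21411. With vehicle, vWAT had 1 peak inside Igfbp5, 3.23 kb from its start site (4.58, rank 4032 of 7400), which was not found with estradiol. Only 3.40% of protein-coding genes had a vehicle peak and no estradiol peak in vWAT, and Igfbp2 and Igfbp5 shared this one. None of the Liver peaks of these 4 genes was among the 5193 strongest of that list by p-value, the length of the BAT list, where Liver kept only the Top2a and Spryd3 peaks.

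**Figure D4:**
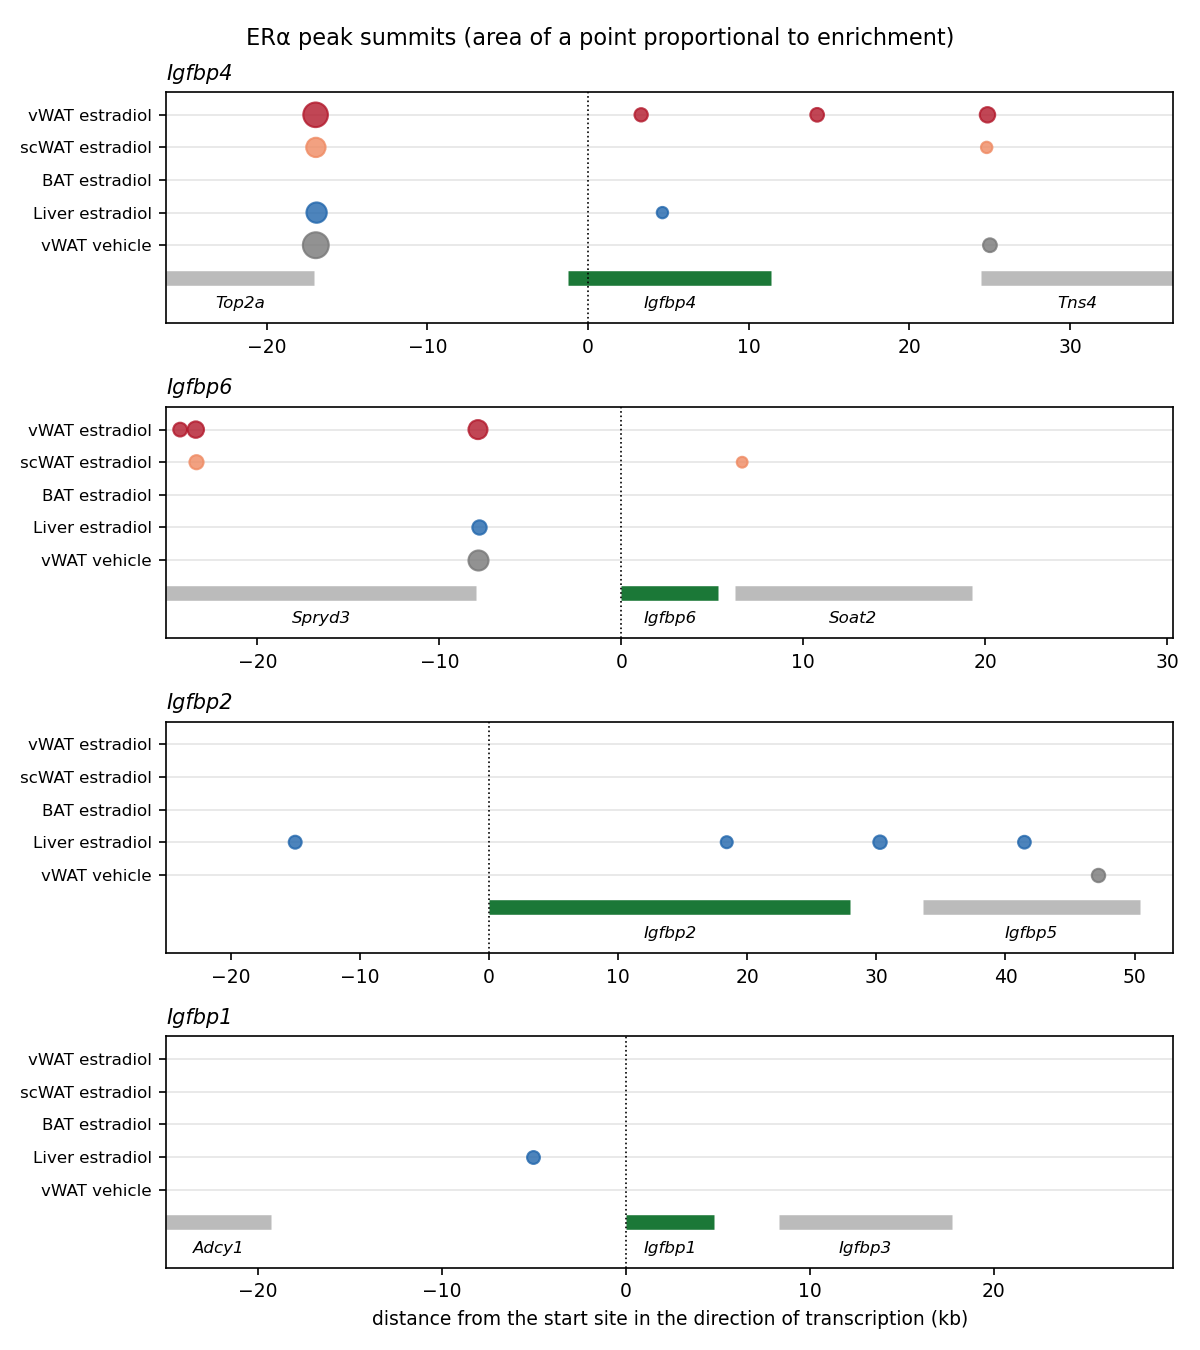
Positions of peak summits in each list (rows) around Igfbp4, Igfbp6, Igfbp2 with its neighbour Igfbp5, and Igfbp1 with its neighbour Igfbp3, as distance from the start site in the direction of transcription (kb). Green bars are the gene, grey bars neighbouring protein-coding genes, and point area is proportional to enrichment. The largest points lie at the ends of Top2a and Spryd3, at 16.9 and 7.87 kb upstream, and the lower panels hold Liver peaks and 1 vehicle peak.

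Comparing estradiol with vehicle in vWAT asks which of these sites were listed with added hormone alone. Of the 25 estradiol peaks, 4 were also listed with vehicle (16.0%, exact 95% Clopper-Pearson interval 4.54 to 36.1%, counting error over peaks alone), against 22.7% of all estradiol peaks. From the other side, 4 of 7 vehicle peaks were found with estradiol (57.1%, 18.4 to 90.1%), against 63.8% of all vehicle peaks. Both intervals hold the share of the whole list, so no difference from it was detectable with so few peaks. The 4 held sites were those at Top2a, Tns4 and Spryd3 and the one inside Igf1r. Their enrichments in the estradiol list were 15.5, 6.09, 9.26 and 10.8. The 21 estradiol-only peaks ran from 3.41 to 6.90 with a median of 4.54, beside 4.59 over all estradiol-only peaks. Of these 21, 16 lay inside a system gene, most of them in genes with long spans. The share inside genes over all estradiol-only peaks was not counted. Of the 10 genes, 6 had an estradiol-only peak (46.2% of all genes did), the same 6 that had any estradiol peak. Among all genes, 10002 had an estradiol-only peak, out of 13297 with any estradiol peak. Of the 6, Igf2r and Igfbp7 had no vehicle peak at all (20.1% of all genes had an estradiol and no vehicle peak). The estradiol list was the longer by 20715 to 7400 peaks. With both lists held to 5193 peaks, the system kept 4 estradiol peaks and 6 vehicle peaks, and 75% of the estradiol peaks were held with vehicle. The part that list length plays in the estradiol-only sites was not tested further.

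Between tissues with estradiol, 9 of the 25 vWAT peaks were found in scWAT (36.0%, 18.0 to 57.5%, list 48.4%), none in BAT (up to 13.7%, list 11.1%) and 2 in Liver (8%, 0.984 to 26.0%, list 22.8%). Of the 15 scWAT peaks, 9 were found in vWAT (60.0%, 32.3 to 83.7%, list 56.0%). Of the 11 Liver peaks, 2 were found in vWAT (18.2%, 2.28 to 51.8%, list 22.2%). The BAT peak was not found in vWAT (list 44.6%). All these intervals hold the share of the whole list. Both vWAT peaks found in Liver were those at the Top2a and Spryd3 start sites, and Liver shared with scWAT a further site in Igf1. When a peak was counted only for its nearest protein-coding gene, no vWAT estradiol peak of the system was found in Liver.

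Grouped by overlap, the 59 peaks made 42 sites. Of these, 30 were found in 1 list, 8 in 2, 3 in 3 and 1, at Top2a, in 4. None was found in all 5. Peaks found in no other list were 14 of 25 in vWAT estradiol, where 43.2% of all peaks were, and 5 of 15 in scWAT (35.9% of all). They were 0 of 1 in BAT (48.0%), 8 of 11 in Liver (71.4%) and 3 of 7 in vWAT vehicle (23.9%). With so few peaks these counts are a description, and no difference from the lists was tested.

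Other genes of the growth hormone and IGF pathway were taken from a list of 27, some of them picked with results of these data known. Several have long spans, such as Ghr (266 kb) and Pappa2 (249 kb), and Stat5a and Stat5b share a peak. What span length adds to the counts below was not tested. A peak was found at 22 of 27 in vWAT estradiol (background 61.5%), 19 in scWAT (61.0%), 10 in BAT (29.7%), 22 in Liver (67.5%) and 17 in vWAT vehicle (44.8%), and 21 had an estradiol-only vWAT peak (46.2%). Stat5a and Stat5b, the transcription factors that carry the growth hormone signal to Igf1, share the strongest vWAT estradiol peak of the list (16.3, rank 268), which was held with vehicle. That of Shc1, an adaptor of the receptor (16.0, rank 315), lay 0.051 kb from the neighbouring gene Flad1 and was held too. It is the same peak that tied Shc1 with Igfbp4 above. Pappa2, a protease that cleaves IGFBP-3 and IGFBP-5 in humans and mice, had 3 peaks in vWAT with estradiol and none with vehicle. The strongest had 15.8 (rank 344), lay inside the gene and was found in scWAT, where the gene's strongest peak had 13.9 (rank 177), but not in Liver, which had 4 weaker peaks at the gene. Htra1, a serine protease reported to cleave IGFBP-5 and named here after its values were seen, had 7 estradiol-only vWAT peaks. The strongest (15.1, rank 463) lay 0.354 kb from the gene and was also found in scWAT. Htra1 also had 1 vWAT vehicle peak, which overlapped none of the 7 (3.08, rank 7350 of 7400). BAT had 1 peak at the gene (7.88, rank 261 of 5193) and Liver 2, the stronger at 3.33.

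The lists were also read at genes that mark each tissue, as a check of the labels at the level of binding. The vWAT estradiol, scWAT, BAT, Liver and vWAT vehicle lists had peaks at 5, 4, 1, 3 and 2 of 5 fat marker genes and at 2, 1, 0, 4 and 0 of 6 liver marker genes. Of all protein-coding genes, 61.5, 61.0, 29.7, 67.5 and 44.8% had a peak in these lists. The Liver count at liver marker genes was thus near the share of all genes. Counts over so few genes cannot settle the labels. Of 5 brown fat marker genes, BAT had peaks at 2, Zic1 and Lhx8, which no other list had, and none at Ucp1, the uncoupling protein of brown fat. Ucp1 had peaks in vWAT estradiol and scWAT, and the counts in the vWAT estradiol, scWAT, Liver and vWAT vehicle lists were 3, 2, 2 and 2 of 5. Binding near a gene does not measure its expression, and the RNA-seq and H3K27ac libraries that the labels name were not analysed here.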

How the data were processed

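ERα ChIP-seq peak lists of 5 groups were used, made from 12 of the 21 labelled samples, grouped by the sample titles. Per the submitters' processing notes, mm10, BWA 0.7.12 and HOMER were named without their roles. How peaks were called, with which threshold and control, and whether libraries were pooled, is not given in the sources used here. Deposited values per peak are an enrichment ratio, a −log10 p-value, a −log10 q-value, a score (the −log10 p-value times 10, rounded down, in at least 99.99% of the peaks of each list) and a summit. The score was not used further. The place of 1 Liver peak is not reported here. Peaks on chromosomes 1 to 19 and X were kept and ranked by enrichment within their list. The summit is column 2 plus column 10, written from 1. Gene spans came from the RefSeq table of GRCm38.p6, and the start site from its promoter table (Igfbp2 has 2, of which the upstream one was used). Peaks of different lists were shared when they overlapped by 1 bp. Backgrounds used the same rule over all protein-coding genes. Window counts, overlaps and the motif search were tested on simulated data. Alternatives changed the window, the q-value, the list length, the assignment to genes and the overlap.

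All 10 genes were described, with the strongest peak of each list except the Liver peak of Igf2r. For the other pathway genes up to 4 by strongest vWAT estradiol peak were named. Among genes that share no peak with Igfbp4, the 3 nearest to it in rank were named with all that tied. The genes and lists were chosen with earlier results of these data known. Scripts ran in Python 3.11.15 with pandas 2.3.3 and numpy 2.4.6. Intervals came from scipy 1.17.1, figures from matplotlib 3.10.9.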

Additional observations from a re-analysis of the deposited data

How the results depend on the processing

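No paired analysis was possible because each group had 1 peak list, and for the same reason no library could be left out. Of 74 values under other settings, 56 stayed within 1.5 times the count or within the interval of the share, and 18 did not. With each list held to 5193 peaks, 3 genes had a peak in vWAT estradiol, 3 in scWAT and 2 in Liver, with 4, 4 and 2 peaks, and 75% and 50% of the vWAT estradiol peaks were found in vWAT vehicle and Liver. Keeping peaks with −log10 q from 2 upwards, BAT had 0 genes and 0 peaks and Liver 7 peaks. Within 50 kb, scWAT had 26 peaks, BAT 2 and Liver 17. Counting a peak for its nearest gene alone left 5 genes in Liver, 3 genes and 4 peaks in vWAT vehicle, and 0% of vWAT estradiol peaks found in Liver. The lists give no depth, and what part the shorter BAT and vehicle lists play in the missing sites was not tested.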

Other observations

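Between 25 and 50 kb from the gene spans, Igf1, Igf2r and Igfbp6 had vWAT estradiol peaks stronger than any of their own inside the limit. Besides the 2 upstream sites of Igf1, whose strongest summit ranked 356 of 20715 in vWAT estradiol and 116 of 17971 in scWAT, Igfbp6 had a site 37.0 kb from its span. It had an enrichment of 9.40 in vWAT estradiol (rank 2455), 7.46 in scWAT (rank 1572) and 5.63 in Liver (rank 3210), with no vehicle counterpart. Igf2r had a site 40.9 kb from its span with 5.61 in vWAT estradiol (rank 7391 of 20715) and 3.09 in scWAT (rank 11794 of 17971), against 4.75 for its strongest vWAT estradiol peak inside the limit. A second site of Igfbp6, 39.9 kb from the span, had 7.84 in vWAT estradiol and 6.16 in scWAT and was found in neither Liver nor vehicle. Both Igfbp6 sites lay inside the spans of other protein-coding genes, whereas the Igf1 sites did not.

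Igfbp7, which had no Liver or vehicle peak within 25 kb, had a site 38.7 kb from its span that was listed in vWAT estradiol (3.47), scWAT (3.21), BAT (4.46) and Liver (3.77). This site lay inside the span of another protein-coding gene. Its −log10 q-values in these lists were 1.57, 3.57, 1.86 and 1.62. These sites were picked after their values were seen, and no test was made.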
